A study of Mus musculus with 41 samples.

Results

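Of the 24520 H3K27ac peaks called in freshly isolated mouse microglia, 7890 (32.2%) were under 10 kb wide and overlapped no H3K27ac peak of microglia kept in culture for 7 d, not even by 1 bp. These ex vivo-only regions covered 10.7 Mb, 17.5% of all bases under ex vivo peaks. They were selected on the presence of the mark in one list and its absence in the other and on their width, so both properties describe them and are not results. The other peaks under 10 kb, 16106 regions that were also marked at 7 d, are called retained regions here, and 524 ex vivo peaks were 10 kb or wider. The 7 d list held 31349 peaks, of which 13319 overlapped no ex vivo peak.

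Microglia are the resident macrophages of the brain. All microglial samples came from C57Bl6 mice and were live CD11b+ CD45Low cells purified by flow sorting. One group was profiled straight after the sort, with no culture (ex vivo), and the others were kept in DMEM/F12 medium with 5% serum and a daily addition of IL-34, a survival factor for microglia that acts through Csf1r, and the medium was not replaced. RNA was sequenced from 5 ex vivo libraries, from cultures of 6 h (2 libraries), 24 h (3) and 7 d (5), from 7 d cultures given TGFβ besides IL-34 (2), and from brain lysate (4). H3K27ac and open chromatin (ATAC) were mapped ex vivo and at 7 d, and PU.1 and H3K4me2 ex vivo, each as 1 peak list called on 2 pooled libraries. The labels of 1 library in the 24 h group and of 1 in the 7 d ATAC group give 22 h and 8 d, and both were kept in the group of their title. No age of the mice is given in the labels used here.

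H3K27ac is an acetylation of histone H3 found at active enhancers and promoters, and it can be lost from an element whose DNA stays open. ATAC marks open chromatin, H3K4me2 marks enhancers and promoters whether or not they are acetylated, and PU.1, the product of Spi1, is the lineage factor that opens and occupies most macrophage enhancers. Microglia depend on signals of brain tissue, among them TGFβ, to keep their characteristic genes switched on, and lose much of that programme when taken out of the brain.

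Promoters inside ex vivo-only regions are shown first, because these are elements where the mark, the gene and the RNA can be read together. Among the 32851 promoter windows of RefSeq (build GRCm38.p6, each 300 bases, 250 before and 50 after a gene start), 693 windows of 626 genes lay wholly inside an ex vivo-only region. The 3 below belong to Fosb, an AP-1 subunit of the immediate-early response, Tlr12, a Toll-like receptor, and Nav2, a cytoskeletal protein, 1 of the 3 genes with the largest number of regions. Capitals mark GGGCGGGG, a letter string of the Sp/Klf factors, in Fosb and Nav2, and AANNGAAAC, one of the IRF factors, in Tlr12. Both strands were searched, and each sequence is printed 5′ to 3′ on the strand of its gene.
Fosb, chr7:19309996-19310295, minus strand: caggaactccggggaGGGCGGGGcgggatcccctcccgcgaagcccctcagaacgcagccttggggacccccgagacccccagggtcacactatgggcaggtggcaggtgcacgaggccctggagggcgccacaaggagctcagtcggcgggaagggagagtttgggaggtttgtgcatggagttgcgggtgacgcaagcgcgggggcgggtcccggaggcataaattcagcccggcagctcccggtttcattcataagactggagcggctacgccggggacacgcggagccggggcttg
Tlr12, chr4:128618570-128618869, minus strand: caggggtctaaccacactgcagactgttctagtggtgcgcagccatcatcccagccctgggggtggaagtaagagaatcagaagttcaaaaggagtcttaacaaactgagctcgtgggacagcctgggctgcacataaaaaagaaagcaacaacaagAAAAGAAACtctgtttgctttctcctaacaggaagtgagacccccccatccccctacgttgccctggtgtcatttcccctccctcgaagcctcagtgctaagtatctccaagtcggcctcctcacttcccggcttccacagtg
Nav2, chr7:48958823-48959122, plus strand: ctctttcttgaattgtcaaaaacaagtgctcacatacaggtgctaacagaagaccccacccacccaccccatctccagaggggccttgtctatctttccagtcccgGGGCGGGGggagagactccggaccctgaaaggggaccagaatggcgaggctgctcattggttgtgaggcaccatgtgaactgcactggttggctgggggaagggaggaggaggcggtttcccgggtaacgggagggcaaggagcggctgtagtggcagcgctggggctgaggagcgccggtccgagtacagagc
The Fosb window lay in a region of 3216 bp with 2 ATAC peaks ex vivo and 2 at 7 d, the Tlr12 window in one of 5490 bp with 4 ATAC peaks ex vivo and 1 at 7 d, and the Nav2 window in one of 6282 bp with 3 and 2. PU.1 peaks numbered 1, 3 and 2 in these regions.

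The Sp/Klf string GGGCGGGG occurred in 32.0% of the windows inside ex vivo-only regions, in 34.3% of the 9573 windows inside retained regions and in 17.6% of all windows, and the Egr string GCGTGGG in 9.38%, 8.73% and 5.04%. Both strings are rich in G and C, and the median GC content was 60.0% in ex vivo-only, 62.0% in retained and 52.7% in all windows. In the same order, the AP-1 string TGANTCA was found in 2.89%, 4.42% and 7.81%, the IRF string in 4.62%, 4.90% and 5.77%, and the PU.1 core GAGGAA in 26.0%, 27.3% and 28.3%. The longer PU.1 string GAGGAAGT, which contains that core, was found in 2.89%, 3.54% and 3.20%. The Smad string CAGACA was found in 17%, 15.1% and 21.0%, the CRE string TGACGTCA in 3.03%, 3.82% and 1.79%, the RUNX string TGTGGTTT in 0.866%, 1.16% and 1.78%, and the MEF2 string CTAAAAATA in 0.289%, 0.240% and 0.517%. On the strings named so far, the ex vivo-only windows lay closer to the retained windows than to all windows, except for GAGGAAGT. The MiT/TFE string CACGTGA also went the other way, with 2.89% against 6.74% in retained and 3.77% in all windows, and the C/EBP string TTGCGCAA was in 0 of the 693 windows, 0.387% of retained and 0.183% of all. Several shares rested on few of the 693 windows: 2 for MEF2, 6 for RUNX, 21 for CRE, and 20 each for AP-1, GAGGAAGT and MiT/TFE. Differences between the sets of windows were not tested.

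The ex vivo-only regions were narrower than the retained ones. The overlap rule itself favours this, since a narrow peak has less room to meet a 7 d peak, and its share in the difference was not tested. Their median width was 1083 bp, with quartiles of 640 and 1666 bp, against 2104 bp for retained regions, and 1547 of them (19.6%) had the smallest width in the list, 501 bp, against 2.99% of retained regions. The widest were a 9655 bp region at chr7:99686013-99695667 by Slco2b1, one of 9310 bp by Anapc16 and one of 9067 bp by Spsb1. Just beyond the width limit, 7 peaks of 10 kb or more also lacked a 7 d peak, the narrowest being 11055 bp by Gab1, 11999 bp by Arid3a and 12013 bp by Adgrg1. At the other edge of the rule, the closest ex vivo-only region lay 1 bp from a 7 d peak, by Ptprj, and the next 3 bp away, by Elmo1, while the smallest overlaps that kept peaks out were 3 bp by Usp24, 7 bp by Osbpl11 and 12 bp by Frmd4a. Such cases were few: the median gap to the nearest 7 d peak was 8.59 kb, 443 regions (5.61%) were within 1 kb of one, and 305 lay more than 100 kb away. The pooled ex vivo H3K27ac data held 45.6 M tags with 64.0% in peaks, and the 7 d data 27.6 M with 32.1%. How far this difference in depth and enrichment moved weak regions in or out of the set was not tested.

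Ex vivo-only regions lay mostly away from gene starts. Of the 7678 regions on chromosomes for which gene starts were used here (all but chromosome 18 and unplaced scaffolds), 997 (13%, exact 95% binomial interval 12.2% to 13.8%) were within 1 kb of a gene start, against 47.4% (46.6% to 48.2%) of retained regions. The median distance to a start was 14.5 kb, against 2.63 kb. Some starts on the other chromosomes were missing too. The Fabp5 region lay 37.6 kb from its gene body and 631 kb from any start used, and 1 Pag1 region 18.9 and 509 kb. Shares near a start may thus be too low and distances too long. Most regions, 5599 of 7890 (71.0%), still touched a gene body, 2080 lay outside but within 100 kb of one, and 211 had none in reach. The share of ex vivo peaks that were ex vivo-only ran from 27% on chromosome X to 34.0% on chromosome 5, leaving out Y, with 3 of 8 peaks. Intervals here and below cover counting error only, and neighbouring regions are not independent of each other.

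**Figure D1:**
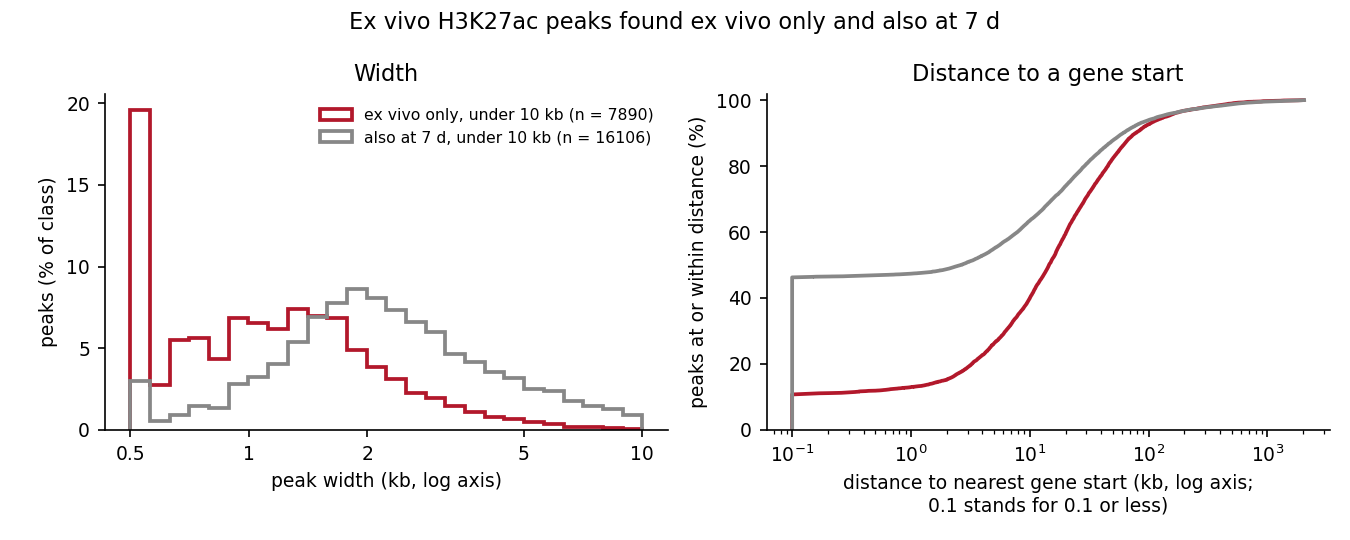
Left, distribution of peak width in kb on a log axis for ex vivo-only and retained H3K27ac peaks, in percent of each class. Right, cumulative percent of peaks at or within a given distance of the nearest gene start (log axis). The ex vivo-only peaks pile up at the smallest width and 13% of them are within 1 kb of a gene start, against 47.4% of retained peaks.

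Most ex vivo-only regions kept open chromatin in culture. An ex vivo ATAC peak was found in 6055 of the 7890 regions (76.7%, exact 95% interval 75.8% to 77.7%), and 5230 of these 6055 (86.4%, 85.5% to 87.2%) also overlapped an ATAC peak at 7 d, where the acetylation peak was gone. Only 825 regions (10.5%) had an ATAC peak ex vivo and none at 7 d. A further 403 had one at 7 d and not ex vivo, and 1432 (18.1%) had none in either list. An ex vivo ATAC peak was found in 95.4% of retained regions, and 98.6% of those regions also overlapped an ATAC peak at 7 d. Both shares were lower in the ex vivo-only regions, with intervals that did not overlap. Counted by single ATAC peaks, 75.7% of the 7922 ex vivo ATAC peaks inside ex vivo-only regions overlapped a 7 d ATAC peak, against 84.2% inside retained regions and 70.3% outside ex vivo H3K27ac peaks.

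PU.1 was present in 5814 ex vivo-only regions (73.7%, exact interval 72.7% to 74.7%) and H3K4me2 in 5220 (66.2%, 65.1% to 67.2%), against 89.1% and 89.6% of retained regions. Regions with ATAC, PU.1 and H3K4me2 together numbered 3666 (46.5%), with a median width of 1367 bp, and 668 (8.47%) carried none of the 3, with a median width of 501 bp. Inside the ex vivo-only regions, ATAC peaks with PU.1 overlapped a 7 d ATAC peak in 82.1% of 5634 cases (81.1% to 83.1%) and those without PU.1 in 59.8% of 2288 (57.8% to 61.9%). The same order was seen in retained regions (89.0% and 74.9%) and outside H3K27ac peaks (78.7% and 64.0%), so it was not particular to the ex vivo-only set.

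Width moved with each of these shares. Under 1 kb, ATAC was found in 62.0%, PU.1 in 57.3% and H3K4me2 in 57.6% of ex vivo-only regions, and between 4 and 10 kb in 97.2%, 98.2% and 90.3% of 217 regions. Within each width class all 3 shares were lower than in retained regions. Under 1 kb the retained regions had ATAC in 76.8%, PU.1 in 63.7% and H3K4me2 in 75.7%. At 1 to 2 kb, ATAC was found in 86.6% against 95.8%, PU.1 in 84.4% against 85.8%, and H3K4me2 in 71.9% against 89.0%. At 2 to 4 kb the shares were 92.7% against 98.3%, 92.1% against 94.8% and 73.1% against 91.6%. At 4 to 10 kb the retained regions had them in 99.5%, 99.2% and 94.8%. The exact intervals of ex vivo-only and retained regions met for PU.1 at 1 to 2 kb (83.0% to 85.7% and 84.9% to 86.7%) and for PU.1 and H3K4me2 at 4 to 10 kb, and were apart in the other cases.

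**Figure D2:**
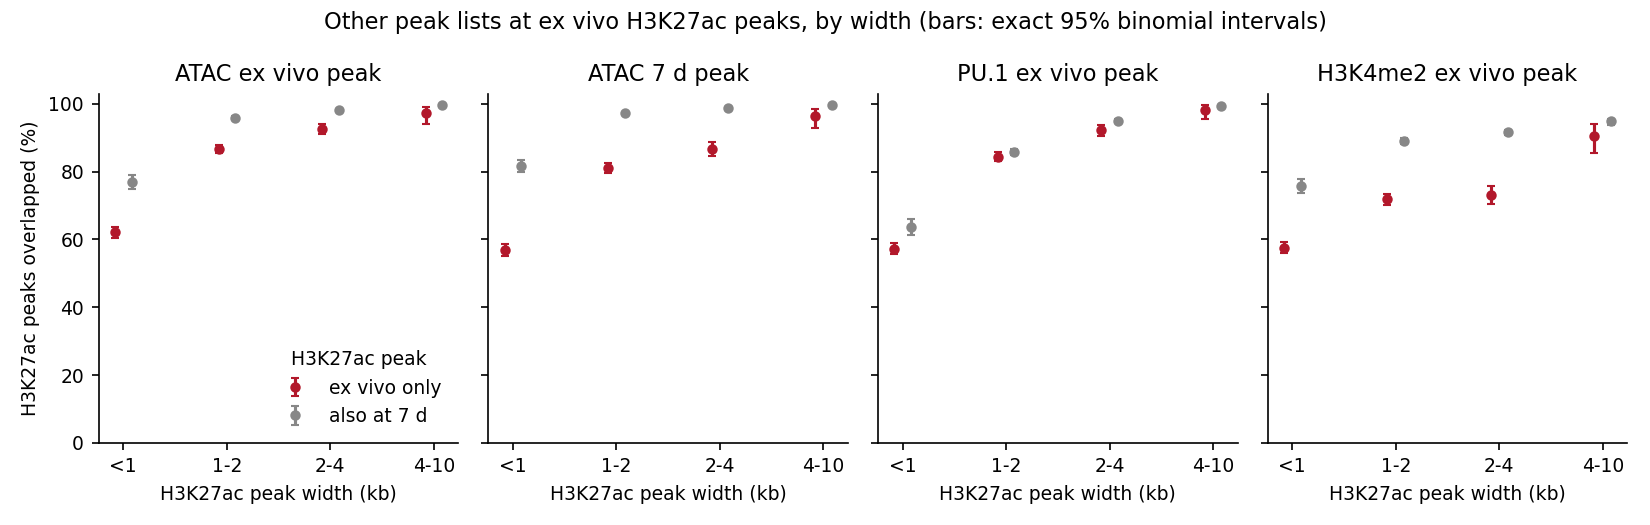
Percent of H3K27ac peaks that overlap a peak of each chromatin list, by H3K27ac peak width, for ex vivo-only and retained peaks. Error bars are exact 95% binomial intervals. H3K4me2 is found in 57.6% of ex vivo-only and 75.7% of retained peaks under 1 kb, and in 90.3% and 94.8% between 4 and 10 kb, and PU.1 in 57.3% and 63.7%, and in 98.2% and 99.2%.

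Regions near gene starts differed from distal ones in the other marks. The 997 ex vivo-only regions within 1 kb of a start had H3K4me2 in 92.3% and PU.1 in 67.2%, and the 6681 farther away had them in 62.2% and 74.6%. Of the start regions that were open ex vivo, 92.8% were also open at 7 d, against 85.2% of distal ones. The median widths were close, 1051 and 1099 bp.

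To relate the regions to RNA, each was assigned to the closest gene body, at most 100 kb away, a rule of distance that says nothing of which gene a region acts on. In this way 7679 regions fell to 4500 genes: 2959 genes had 1 region, 852 had 2 and 689 had 3 or more. RNA libraries held 11.6 to 28.8 M counts, and fold changes are given as log2 with the standard error (SE) and the Benjamini-Hochberg adjusted p of edgeR's quasi-likelihood test. Of the 4500 genes, 3893 had enough counts to be tested, and the other 607 were filtered out for low counts. Nothing in the labels says that libraries of a group came from separate animals or cultures, so p-values measure the spread between libraries, and in bulk samples fewer cells of a type and less RNA per cell cannot be told apart.

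Genes with an ex vivo-only region had lower RNA at 7 d more often than genes at large. Among the 3893, 1904 (48.9%) were lower at 7 d than ex vivo and 979 (25.1%) higher, where 35.7% of all 13840 genes tested were lower and 34.8% higher. Their median log2 fold change was −0.41, against −0.02 for all genes. The share that was lower was larger with 2 or more regions than with 1: 43.2% with 1 region, 54.0% with 2, 58.2% with 3, 68.3% with 4, 67.1% with 5 to 7 and 48 of 56 genes (85.7%) with 8 or more. Genes with a retained region and no ex vivo-only region went the other way, with 27.9% lower and 43.6% higher.

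Gene length moved with the number of regions, since the median gene body was 26.5 kb with 1 region, 95.6 kb with 3 or more and 218 kb with 8 or more, against 16.8 kb for tested genes without one. Within genes of 10 to 30 kb the share lower was still 30.2% without a region, 45.2% with 1, 61.1% with 2 and 74.1% of 85 genes with 3 or more. Within genes over 100 kb it was 32.5%, 37.2%, 47.1% and 65.3%. Genes that gained no 7 d-only H3K27ac peak beside their ex vivo-only region were lower in 52.8% and higher in 20.7%, and those with both kinds were lower in 44.3% and higher in 30.3%. Of 636 genes with at least 1 region that also lost its ATAC peak, 56.4% were lower. Their other regions could keep ATAC, and the number of regions per gene was not held equal.

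The counts also differed with the position of the region. Of 864 genes with an ex vivo-only region within 1 kb of a gene start, 55.1% were lower and 17.6% higher at 7 d, against 47.4% and 27.4% of 2927 genes whose regions were all farther away. For the 471 tested genes whose promoter window lay wholly inside a region, 278 (59.0%) were lower and 65 (13.8%) higher, with a median of −0.85.

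**Figure D3:**
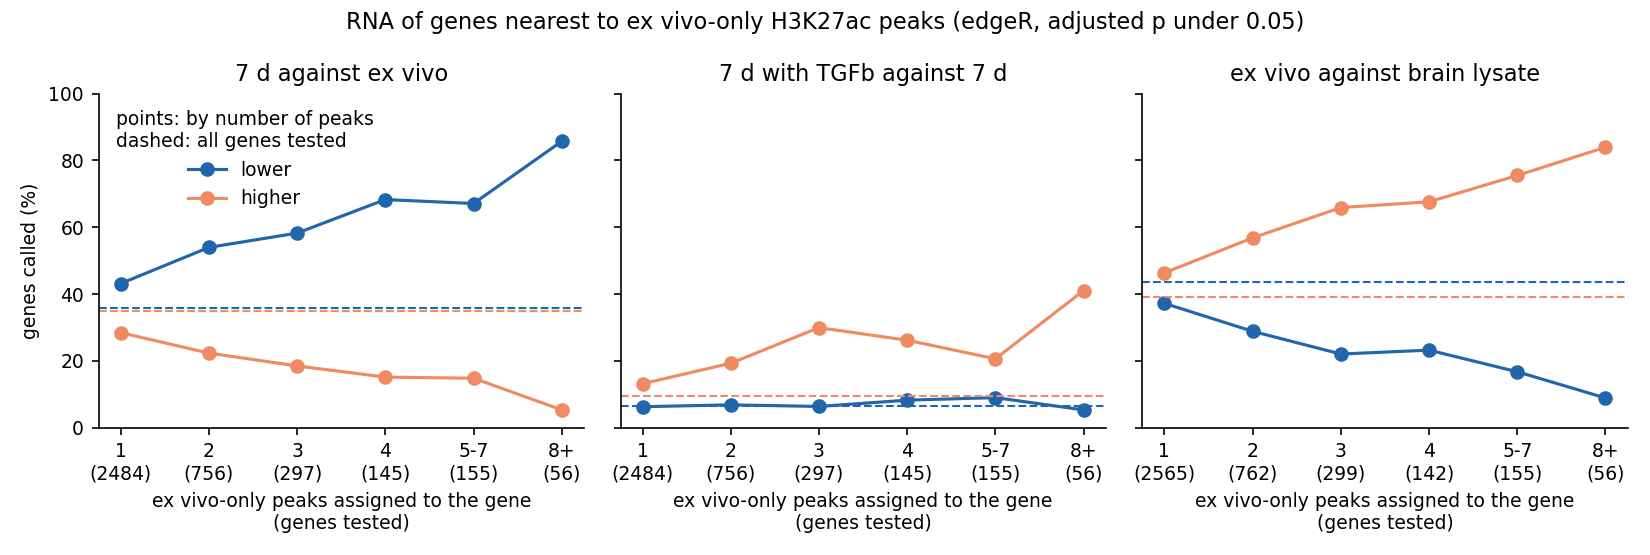
Percent of tested genes called lower (blue) or higher (orange) by edgeR against the number of ex vivo-only regions assigned to the gene, for 3 comparisons. Dashed lines give the percent among all genes tested. At 7 d the share lower rises from 43.2% with 1 region to 85.7% with 8 or more, against 35.7% of all genes.

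The 15 genes with the most regions held 195 of them, 184 touching the gene body, and 14 of the 15 fell at 7 d. Foxn3, a forkhead transcription factor, had 17 regions over its body, 14 with ATAC and 13 with PU.1. Its RNA was 118, 116, 101.8, 137 and 138 CPM (counts scaled to library size) in the 5 ex vivo libraries and 55.1, 41.3, 46.7, 52.2 and 56.5 CPM at 7 d. The groups did not overlap, and the gene fell by 1.28 (log2, SE 0.13, adjusted p = 1.53e-07). Zfhx3, a large homeodomain and zinc-finger factor, also had 17 regions, and ranged from 1150 to 1939 CPM ex vivo and from 168 to 434 CPM at 7 d, a fall of 2.35 on the log2 scale (SE 0.25, adjusted p = 3.2e-07). Nav2, whose promoter is printed above, had 17 regions as well, and went from 141 to 289 CPM ex vivo to 54.5 to 84.8 CPM at 7 d, log2 −1.60 (SE 0.22).

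Pag1, a membrane adaptor that holds Csk near Src-family kinases, and Sdk1, an adhesion protein of the immunoglobulin family, had the larger falls of this set. Pag1, with 10 regions, was at 970 to 1675 CPM ex vivo and 105 to 161 CPM at 7 d, log2 −3.26 (SE 0.19). Sdk1, with 11 regions, the 3 widest of them 91.3 to 118 kb from any 7 d H3K27ac peak, was at 24.8 to 47.0 CPM ex vivo and 1.43 to 5.86 CPM at 7 d, log2 −3.50 (SE 0.36). Elmo1, which works with Dock proteins to activate Rac in engulfment, had 13 regions and fell by 1.20 (SE 0.12), from 501 to 735 CPM to 269 to 295 CPM. Vav2, a guanine nucleotide exchange factor, had 10 and fell by 2.20 (SE 0.13), and Plcl2, a phospholipase C-like protein, had 16 and fell by 1.86 (SE 0.11). The one gene of the 15 that did not pass the test was Etv6, an ETS-family repressor with 12 regions, at 118 to 161 CPM ex vivo and 98.1 to 137 CPM at 7 d (log2 −0.28, SE 0.13, adjusted p = 0.0617). Its groups overlapped. The remaining genes of the set, Frmd4a, Slc9a9, Zswim6, Epb41l2, Qk and Rapgef1, fell by 0.69 to 1.62 on the log2 scale. The groups of Qk overlapped as well, at 854 to 1903 CPM ex vivo and 538 to 881 CPM at 7 d.

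The genes with a region and the largest falls were chosen for their RNA change and are described with that in view. Siglech, a sialic acid-binding lectin of microglia, had 1 region of 2402 bp at chr7:55743816-55746217, 21.9 kb outside the gene, with 2 ATAC peaks ex vivo, 3 at 7 d and 1 PU.1 peak. Siglech RNA was 1247, 1510, 1372, 1284 and 1247 CPM ex vivo and 1.95, 1.47, 1.75, 0.317 and 0.811 CPM at 7 d. The groups were far apart, log2 −10.03 (SE 0.41, adjusted p = 8.06e-12).

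Upk1b, a tetraspanin, had 5 regions over its body, the widest at chr16:38788165-38790450, 4 of the 5 with ATAC ex vivo and 3 at 7 d, and no retained or 7 d-only H3K27ac peak. Its RNA fell from 89.7 to 192 CPM to between 0 and 0.240 CPM (log2 −9.94, SE 0.38). Slc2a5, the fructose transporter GLUT5, had 2 regions in its body and fell from 510 to 716 CPM to 0.277 to 1.63 CPM (log2 −9.55, SE 0.50). Tlr12, with 1 region of 5490 bp over gene and promoter, was at 74.2, 68.2, 87.2, 98.0 and 107 CPM ex vivo and at 0.368, 0.583, 0.520, 0.158 and 0 CPM at 7 d. Its region had 4 ATAC peaks ex vivo and 1 at 7 d, and the RNA change was log2 −7.99 (SE 0.44). Tspan18, another tetraspanin, Spns2, a transporter of sphingosine-1-phosphate, and Crybb1, a beta-crystallin, changed by log2 −8.49, −8.31 and −8.52, each with 2 regions.

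Ltf, which encodes lactoferrin, a protein of neutrophil granules, was also among the largest falls, with a single 501 bp region. Its ex vivo values were 2.41, 51.8, 34.8, 1.65 and 16.5 CPM, and its 7 d values 0.0736, 0.0343, 0.223, 0 and 0 CPM. The summed level of 7 neutrophil markers in the same ex vivo libraries was 7.19, 174, 157, 3.22 and 39.0 CPM, in the same order of libraries as Ltf, and 0.356 to 2.08 CPM at 7 d, and none of the 7 had a region. The log2 change of Ltf was −8.19 with an SE of 1.33, and the part of neutrophil RNA in it was not tested.

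Some genes with a region rose at 7 d. Lmna, encoding the nuclear lamins A and C, was at 1.72, 2.06, 2.78, 1.50 and 1.11 CPM ex vivo and 202, 213, 175, 240 and 165 CPM at 7 d (log2 6.73, SE 0.23). Its region, 1388 bp wide and 6.70 kb outside the gene, had an ATAC peak ex vivo and none at 7 d, and the gene also had 2 retained regions and 1 7 d-only peak. Capg, an actin-capping protein, rose from 10.8 to 15.7 CPM to 577 to 740 CPM (log2 5.64, SE 0.16), with 1 region 20.6 kb away and 5 retained ones. Plxna2, a semaphorin receptor, rose by 7.72 (SE 0.59) from at most 0.375 CPM to between 12.0 and 42.3 CPM, with 1 region and 5 7 d-only peaks. Fabp5, a fatty acid-binding protein, rose by 6.30 (SE 0.48). For each of these 4 genes the ex vivo and 7 d libraries did not overlap, and each had at least 1 7 d-only peak beside the region.

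Of 24 listed homeostatic microglia genes, 14 had an ex vivo-only region, and all 14 fell at 7 d, with a median of −3.25, against 22 of the 24 for the whole list (median −3.83), so most listed genes without a region fell too. Tmem119, Cx3cr1 and Csf1r are examples with no ex vivo-only region of their own, and each has 1 peak of 10 kb or more instead. Sall1, the transcription factor that maintains microglial identity, had 3 regions, all outside the gene, the widest at chr8:89053875-89056812, 9.71 kb away, and each had ATAC both ex vivo and at 7 d. Its RNA was 1582, 1991, 1807, 2073 and 2174 CPM ex vivo and 175, 80.5, 108, 157 and 175 CPM at 7 d, log2 −3.79 (SE 0.25), with no overlap. P2ry12, the receptor through which microglia sense ADP, had a single region of 1077 bp in its body with no ATAC, PU.1 or H3K4me2 peak, and fell from 2974 to 6573 CPM to 30.4 to 46.4 CPM (log2 −6.80, SE 0.39). Adgrg1, an adhesion receptor, had a 939 bp region whose 2 ATAC peaks were both absent at 7 d, and fell by 6.73 (SE 0.30). Sparc, a secreted matrix protein, had 3 regions, 1 open ex vivo and none open at 7 d, and changed by log2 −5.90 (SE 0.34).

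The summed level of 8 microglia markers was 39767 to 44487 CPM ex vivo and 6953 to 10364 CPM at 7 d, and 5 of the 8 had a region. Markers of most other cell types were low in both groups, with higher sums ex vivo. Oligodendrocyte markers summed to 37.2 to 131 CPM ex vivo and 10.8 to 12.1 CPM at 7 d, neuron markers to 2.46 to 15.5 CPM and 0.514 to 1.04 CPM, and lymphocyte markers to 8.53 to 19.5 CPM and 0.469 to 2.19 CPM. Sums of astrocyte (3.34 to 148 CPM and 2.94 to 6.32 CPM), monocyte (5.52 to 46.9 CPM and 3.90 to 6.36 CPM) and endothelial markers (35.8 to 45.4 CPM and 12.0 to 37.2 CPM) overlapped between the groups. The sum of border macrophage markers was lower ex vivo, at 7.31 to 104 CPM against 194 to 229 CPM. Taken singly, 2 of these 7 markers were called lower and 2 higher at 7 d, with a median of −0.35. In the ex vivo libraries 1 endothelial marker had no count, and at 7 d 4 of 8 neuron, 3 of 6 endothelial, 3 of 6 lymphocyte, 2 of 7 neutrophil, 1 of 5 monocyte, 1 of 6 astrocyte and 1 of 5 oligodendrocyte markers had none. Ex vivo-only regions fell to Mbp, Mog and Mag of the oligodendrocyte list, and to Aldh1l1, Rbfox3, Plac8, Cd79b, Pecam1, Flt1, Mrc1 and Cbr2 of the others. The part of such cells in the regions was not tested.

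Of 30 listed receptors and other surface proteins 19 had a region, of which 15 fell and 3 rose, with a median of −1.78. On the whole list 21 of the 29 tested fell and 6 rose, with a median of −1.92. P2rx7, the ATP-gated channel, had 2 regions, the wider one, of 4266 bp at chr5:122636700-122640965, open ex vivo and not at 7 d. It was at 418, 438, 384, 507 and 480 CPM ex vivo and 104, 95.9, 98.8, 95.7 and 121 CPM at 7 d, with no overlap (log2 −2.11, SE 0.11). Lpcat2, an enzyme of lipid mediator synthesis placed on this list, fell from 854 to 956 CPM to 69.6 to 91.5 CPM (log2 −3.52, SE 0.12). Fcgr3, an Fc receptor, had values of 549 to 851 CPM ex vivo and 448 to 705 CPM at 7 d, which overlapped (log2 −0.43, adjusted p = 0.0586). Some alternative settings called Fcgr3 lower, DESeq2 among them (log2 −0.49, adjusted p = 0.0242).

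Of 46 listed transcription factors 35 had a region, and 21 of the 35 fell while 4 rose, with a median of −0.90. Of the 45 tested on the whole list 25 fell and 8 rose, with a median of −0.70. Bach2, a repressor of the bZIP family, had 8 regions, the widest over its body at chr4:32237556-32240636, and all 8 had ATAC at 7 d. Its RNA fell from 80.5 to 116 CPM to 8.30 to 14.3 CPM (log2 −3.23, SE 0.19). Ets1, with 3 regions, fell by 1.86 (SE 0.12), and Mef2a, whose 6 regions had ATAC in 3 cases ex vivo and in none at 7 d, fell by 1.14 (SE 0.14). Irf8, an interferon regulatory factor needed for microglial development, had 4 regions, all outside the gene, and fell by 0.90 (SE 0.12), from 493 to 649 CPM to 276 to 349 CPM. Mef2c and Maf did not pass the test in spite of 4 and 1 regions. Mef2c was at 474 to 767 CPM ex vivo and 440 to 666 CPM at 7 d (log2 −0.05, SE 0.16, adjusted p = 0.787), and Maf at 479 to 1096 CPM and 609 to 833 CPM (log2 −0.09, SE 0.22). For both genes the groups overlapped. Spi1 itself had no ex vivo-only region.

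In the TGFβ pathway, 14 of 26 genes had a region, and 9 fell and 2 rose, with a median of −0.62. Of the 24 tested on the whole list 13 fell and 4 rose, with a median of −0.44. The type I receptor Tgfbr1 had 4 regions, all in its body, 1 of them open ex vivo and at 7 d, and was at 2507, 4026, 2585, 2495 and 2280 CPM ex vivo and 659, 292, 330, 321 and 558 CPM at 7 d (log2 −2.69, SE 0.25). Among the signal transducers, Smad3 had 5 regions, each with H3K4me2, and fell by 1.99 (SE 0.13), from 228 to 326 CPM to 58.1 to 80.8 CPM. Smad7, the inhibitor that the pathway itself induces, had 2 regions and fell by 2.03 (SE 0.16). Eng, a co-receptor, had 3 regions and changed by log2 −1.41 (SE 0.13), and Acvr1, a BMP-type receptor, had 1 and changed by −0.98 (SE 0.09). Nrros, which anchors latent TGFβ on microglia, and Bambi, a pseudoreceptor, were not called (log2 −0.07 and 0.22, adjusted p = 0.670 and 0.676).

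Immediate-early genes were more variable. Of 24 listed, 10 had a region, 7 of which fell, with a median of −3.96. On the whole list 18 of 24 fell, with a median of −3.60. The regions given to Fos lay 45.6 and 40.5 kb outside the gene, and those given to Jun 31.7 and 99.6 kb. All of these lay nearer the start of another gene, 4.38 to 11.1 kb away. Fos was at 5327, 534, 23.2, 2025 and 1952 CPM ex vivo and at 100.0, 54.1, 52.7, 129 and 76.1 CPM at 7 d. Fosb was at 2141, 46.7, 0.403, 594 and 714 CPM ex vivo and at 1.03, 0.789, 0.371, 0.555 and 0.171 CPM at 7 d. For both, ex vivo replicate 3 lay inside or below the 7 d range while the other ex vivo libraries lay above it. The log2 changes were −4.58 (SE 0.90, adjusted p = 0.000354) and −10.19 (SE 1.60, adjusted p = 4.36e-05). Jun showed the same low value in that library, 260 CPM against 1067 to 9133 CPM in the other 4 ex vivo libraries, and Btg2 was at 182 CPM there and at 326 to 2522 CPM in the others. This library also had the highest sums of astrocyte and oligodendrocyte markers, 148 and 131 CPM.

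Inflammatory genes with a region fell as well at 7 d, 9 of 12 with a median of −3.07, while for the 23 genes of the whole list the median was −0.59 with 10 lower and 4 higher. Il1a, a cytokine, was at 279, 108, 90.2, 291 and 98.5 CPM ex vivo and 1.27 to 2.77 CPM at 7 d (log2 −6.53, SE 0.42). Il1b was at 3.62, 4.00, 4.19, 5.95 and 3.17 CPM ex vivo and at most 0.929 CPM at 7 d (log2 −3.42, SE 0.41), and its region, 2223 bp at chr2:129359369-129361591, was open in both states. Ptgs1, cyclooxygenase 1, had 3 regions and changed by log2 −6.40 (SE 0.25), from 912 to 1204 CPM to 10.2 to 19 CPM. Il6 was at 2.95 to 6.00 CPM ex vivo and 0 to 0.137 CPM at 7 d, and its 5 regions lay outside the gene, the widest 64.0 kb and the nearest 1.27 kb away.

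Phagocyte, lysosome and lipid genes with a region went the other way, 7 of 10 higher and 1 lower, with a median of 1.03. On the whole list 21 of 25 were higher with a median of 1.88. Cd63, a lysosomal tetraspanin, rose from 18.3 to 38.1 CPM to 197 to 289 CPM (log2 3.17, SE 0.18), Ctsl, the protease cathepsin L, by 2.40 (SE 0.18) and Cd9 by 1.35 (SE 0.18). The 1 region at Cd63 and the 2 at Cd9 had no ATAC or PU.1 peak, and the 1 at Ctsl had 2 ATAC peaks ex vivo, 1 at 7 d and 1 PU.1 peak. These regions lay close to a 7 d H3K27ac peak, 0.555 kb away at Cd63, 0.336 kb at Ctsl, and 0.524 and 1.21 kb at Cd9. The region of Fabp5, which rose too, was 46.6 kb from such a peak. Regions of Axl and Ctss, which were not called, were 3.64 to 9.43 kb away. A link between this distance and the RNA was not tested. A region was found at 3 of 21 interferon-response genes and 4 of 20 proliferation genes, and 2 and 3 of these rose, against 18 and 18 on the whole lists.

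**Figure D4:**
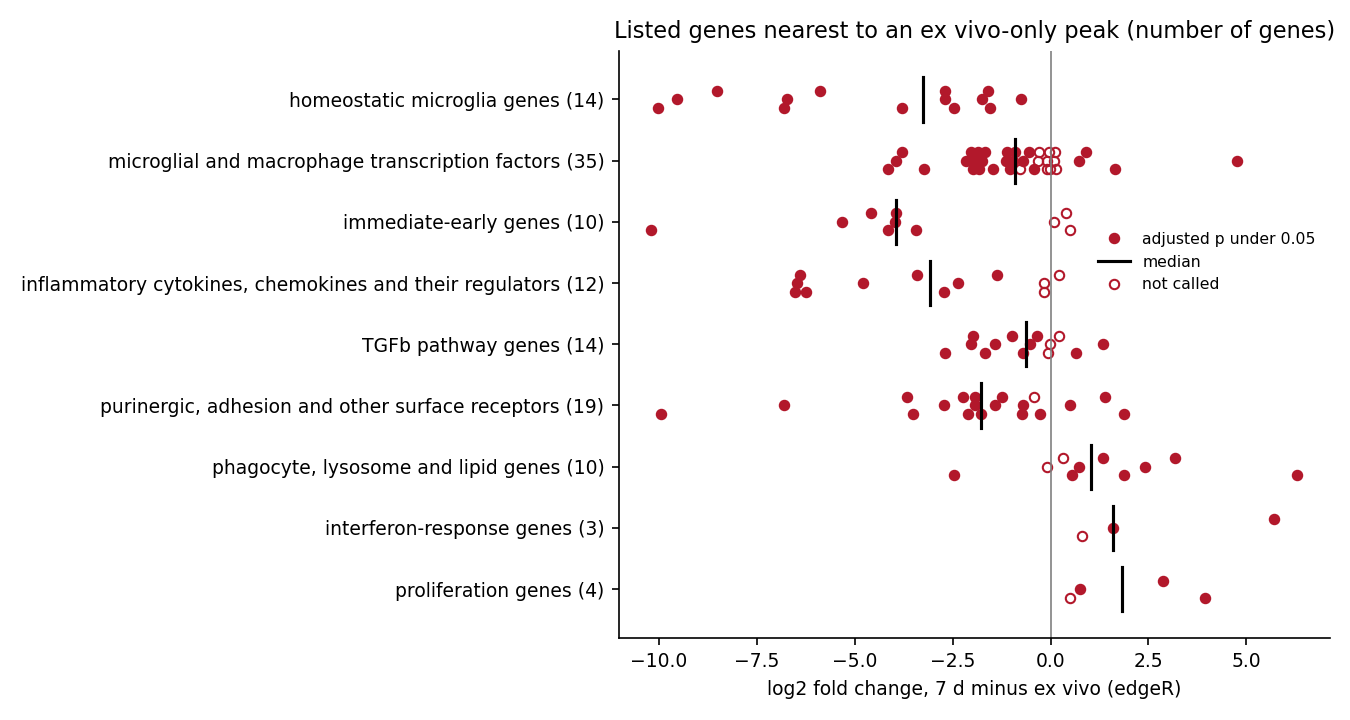
Log2 fold change of 7 d minus ex vivo for listed genes with an ex vivo-only region, 1 point per gene, filled where edgeR's adjusted p is under 0.05, with a bar at the list median. The homeostatic genes lie all below 0 with a median of −3.25, and the phagocyte, lysosome and lipid genes have a median of 1.03.

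The lower RNA was already seen at 6 h. Of the 3893 genes with a region, 1729 (44.4%) were lower and 1171 (30.1%) higher at 6 h than ex vivo, where 36.8% and 31.2% of all genes were lower and higher. At 24 h 1879 (48.3%) were lower and 893 (22.9%) higher, against 33.1% and 29.6% of all genes. These comparisons share the ex vivo libraries with each other and with the 7 d one, so their counts are given side by side only. For the 471 genes with a promoter window inside a region, 62.6% were lower at 6 h, 60.3% at 24 h and 59.0% at 7 d. H3K27ac was not mapped at 6 h or 24 h in the files used here.

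Single genes moved in different orders. Among homeostatic genes with a region, 12 of 14 were lower at 6 h and 14 of 14 at 24 h, against 21 and 23 of the 24 on the whole list. Siglech was at 61.5 and 30.4 CPM at 6 h and at 0.902 to 1.96 CPM at 24 h. Tgfbr1 was at 2759 and 1936 CPM at 6 h, which overlapped the ex vivo values (adjusted p = 0.506), and at 683 to 1056 CPM at 24 h. Slc9a9, an endosomal sodium-proton exchanger with 12 regions, was at 189 to 226 CPM ex vivo, 5.87 and 2.47 CPM at 6 h, 2.86 to 3.27 CPM at 24 h and 69.6 to 97.3 CPM at 7 d, so it was lowest early and partly back at 7 d. Etv6 rose at 6 h, to 475 and 418 CPM (log2 1.61, SE 0.16), and Rapgef1 rose to 560 and 600 CPM from 214 to 320 CPM (log2 1.13, SE 0.22). Il1b rose to 530 and 377 CPM at 6 h and was at 56.6 to 97.7 CPM at 24 h, before its low 7 d values. Among inflammatory genes with a region, 6 of 12 were higher and 2 lower at 6 h, with a median of 1.15, against 16 and 2 of the 23 on the whole list, with a median of 2.59.

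A part of these genes was higher with TGFβ. Against the 7 d culture without it, 656 of the 3893 genes (16.9%) were higher and 257 (6.60%) lower with TGFβ, where 9.57% of all genes were higher and 6.52% lower. The share higher was 27.9% of 653 genes with 3 or more regions and 41.1% (23 of 56) with 8 or more. Gene length and other H3K27ac peaks were not held equal here either. With only 2 TGFβ libraries the counts depended on each: without replicate 1 they were 436 higher and 156 lower, and without replicate 2 the count lower was 105. Against ex vivo cells, 1486 genes with a region (38.2%) were still lower with TGFβ and 857 (22.0%) higher, beside 27.5% and 28.3% of all genes.

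Among homeostatic genes with a region 10 of 14 rose with TGFβ, with a median of 1.92, and on the whole list 17 of 24 rose, with a median of 1.73. Sparc was at 3201 and 1618 CPM with TGFβ against 29.7 to 78.2 CPM without (log2 5.56, SE 0.35), and against ex vivo its change was −0.34 (SE 0.37, adjusted p = 0.443). Siglech reached 62.1 and 48.5 CPM (log2 5.43, SE 0.38) and Sall1 762 and 317 CPM (log2 1.96, SE 0.28), both still below every ex vivo library. Ptgs1 rose to 437 and 421 CPM (log2 5.12, SE 0.25), and Spns2 to 29.2 and 14.8 CPM (log2 6.56, SE 0.40). Of the 15 genes with the most regions, 6 rose, among them Pag1 (log2 2.00, SE 0.21) and Sdk1 (2.43, SE 0.41), and 1, Slc9a9, fell (−1.22, SE 0.26). In the TGFβ pathway 6 of 14 rose and 3 fell, beside 9 and 3 of the 24 tested on the whole list, Tgfbr1 rising by 1.89 (SE 0.29) and Smad7 by 1.07 (SE 0.19). Irf8 rose to 572 and 634 CPM, within the ex vivo range of 493 to 649 CPM. Upk1b (0.548 and 0.212 CPM) and Crybb1 (1.05 and 0.283 CPM) did not pass the test, with adjusted p of 0.152 and 0.683, and Mef2c and Maf fell (−1.04 and −1.54). The 10 immediate-early genes with a region had a median of −0.70, and the 24 of the whole list −0.53.

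**Figure D5:**
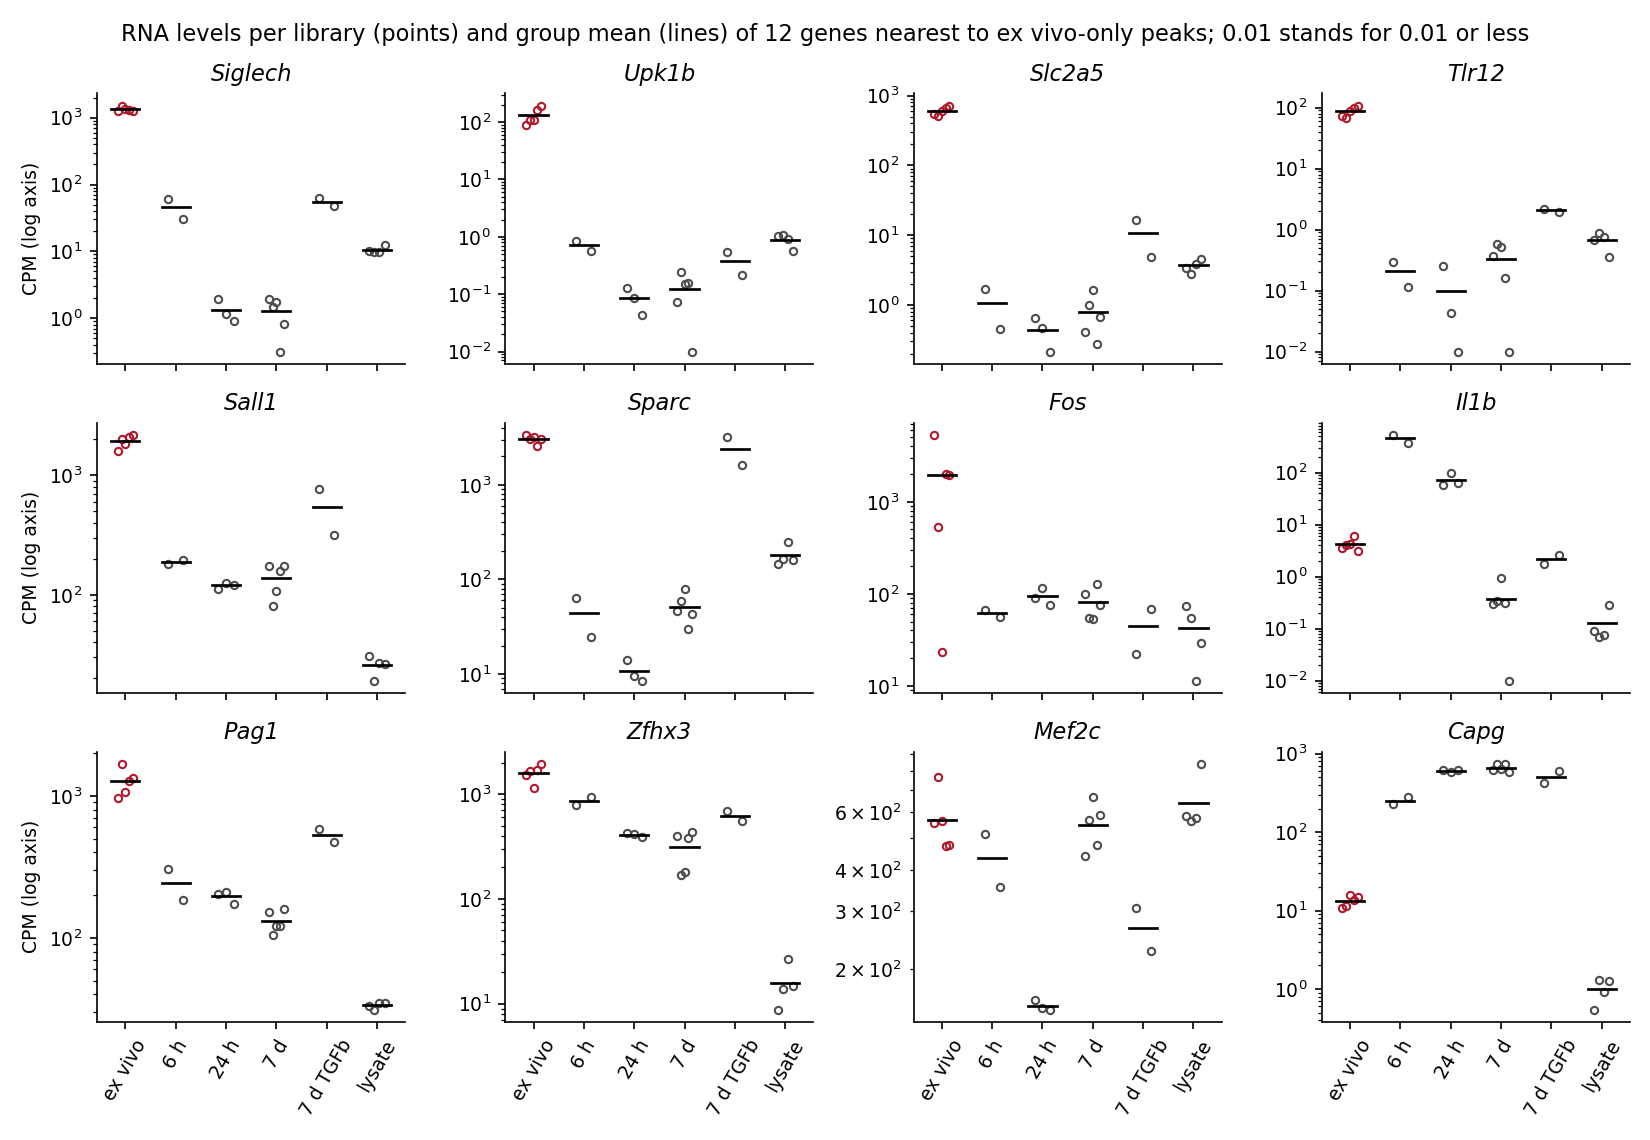
RNA level in CPM on a log axis in each library (points) with the group mean (line) for 12 genes with an ex vivo-only region, in ex vivo, 6 h, 24 h, 7 d and 7 d with TGFβ microglia and in brain lysate. Siglech falls from 1247 to 1510 CPM ex vivo to at most 1.95 CPM at 7 d, Sparc returns to 3201 and 1618 CPM with TGFβ, and Mef2c overlaps between ex vivo and 7 d.

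Compared with brain lysate, genes with many regions were mostly higher in the sorted microglia. Of 3979 genes with a region tested in this comparison, 2079 (52.2%) were higher ex vivo than in lysate and 1305 (32.8%) lower. Of all genes tested, 39.1% were higher and 43.5% lower. Gene length and the other H3K27ac peaks of a gene were not held equal in these shares. The share higher was 70.1% with 3 or more regions and 83.9% (47 of 56) with 8 or more, and all 15 genes with the most regions were higher, from log2 0.80 for Rapgef1 to 6.87 for Zfhx3. All 14 homeostatic genes with a region were higher as well. Genes with a region near a gene start did not show this: 39.7% of 863 were higher and 45.3% lower. The 474 genes with a promoter window inside a region split into 196 higher and 198 lower, although 59.0% of the tested ones were lower at 7 d.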

How the data were processed

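Per the file headers, each peak list holds intervals deposited by the authors, called with HOMER findPeaks on 1 pooled tag directory of 2 libraries per condition, at a fold of 4.00 over input (none for ATAC) and over local signal; the files give no score. Gene counts and a TPM table were deposited by the authors as well, and the submitters' processing notes list mm10 (GRCm38) and, with no role stated, HOMER, STAR, R 3.3.1, limma, Bowtie2 and bedtools. Regions were compared by overlap of at least 1 bp, with exact (Clopper-Pearson) 95% intervals, in Python 3.11.15, and given to the nearest RefSeq gene body within 100 kb by symbol or synonym, which matched 23674 of 24537 symbols directly and 734 by synonym. Gene starts on chromosome 18, and some on other chromosomes, were not used here.

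The test on deposited counts was the robust quasi-likelihood F test of edgeR 4.0.16 (R 4.3.3, TMM scaling, filterByExpr): the 17 microglial libraries in 1 model, the lysate comparison in its own model of 9. The p-values were adjusted over all genes tested (threshold 0.05), the SE is the log2 fold change over the square root of F, and CPM use effective library sizes. DESeq2 1.42.0 and limma 3.58.1 on the deposited TPM (log2 of TPM plus 1 or 0.1) served as alternatives, beside other scalings and filters, leaving libraries out and other overlap rules. The procedure was tested on simulated data.

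Named genes were a fixed set, the 15 with the most regions, the 8 largest falls and 8 largest rises among called genes with a region whose groups did not overlap and whose higher group averaged 20 CPM or more, and the listed genes with the smallest adjusted p or, for contrast, not called. The regions, lists and tests were chosen with earlier results of these data known. No genome sequence was used, so a planned motif search in ATAC peaks inside the regions is left out. Some results are not reported here.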

Additional observations from a re-analysis of the deposited data

Results flagged for a closer look

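Over 249 groups of values of the named genes, 12 had 1 library far from the rest of its group. Chance alone would single out about 1 group in 20 (5%), and the count was near that share. In the ex vivo group, Tgfbr1 was at 4026 CPM in replicate 2 and at 2280 to 2585 CPM in the others, and Mef2a in the same library at 1392 CPM against 960 to 1066 CPM. Zswim6 was at 138 CPM in ex vivo replicate 3 (173 to 178 CPM in the others), Sh3pxd2b at 5.89 CPM in the same library (3.39 to 3.76 CPM), Cpeb1 at 0.186 CPM in replicate 1 (0.375 to 0.444 CPM) and Fcgr3 at 549 CPM in replicate 4 (780 to 851 CPM). At 7 d, Crybb1 was at 1.11 CPM in replicate 3 (0.158 to 0.343 CPM), Cpeb1 at 42.5 CPM in replicate 5 (25.2 to 28.2 CPM) and Ptgs1 at 19 CPM in replicate 1 (10.2 to 11.7 CPM). In brain lysate, replicate 4 stood apart for Mef2c at 841 CPM (563 to 584 CPM) and Il1b at 0.282 CPM (0.0686 to 0.0908 CPM), and Runx3 was at 0.182 CPM in replicate 1 and at 0 in the others.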

How the results depend on the processing

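Peak overlap rules moved the chromatin shares. Counting a peak only when it lay whole inside the region gave 65.5% for ATAC ex vivo, 61.0% for ATAC at 7 d, 63.0% for PU.1 and 85.4% for ATAC at 7 d among regions open ex vivo. Leaving out regions within 1 kb of a 7 d H3K27ac peak gave 78.0% and 72.5% for ATAC ex vivo and at 7 d, and asking that H3K4me2 cover at least 50% of the region gave 55.8%. Gene starts lay inside 9.99% of regions and within 2 kb of 15.3%.

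Of 164 counts of genes recomputed under alternatives, 159 stayed within 1.5 times the value reported. Using only regions within 1 kb of a gene start or end, 602 genes of 1099 were lower and 214 higher at 7 d. Leaving out 1 library at a time gave, for genes with a region, 1853 to 1893 lower and 932 to 996 higher at 7 d, and with TGFβ against 7 d 105 to 275 lower and 436 to 686 higher. The replicate block gave 1914 lower and 984 higher at 7 d. For ex vivo and 7 d libraries of the same number, the correlations of their deviations were −0.01, −0.03, 0.20, 0.03 and 0.06. Such values cannot tell whether the libraries were paired. Another scaling or unit shifted the median of all genes at 7 d from −0.02 to −0.11 (upper quartile) and −0.16 (deposited TPM plus 1), and that of the lysate comparison from −0.10 to −0.38 (DESeq2); genes with a region stayed below all genes at 7 d under each (−0.49 and −0.48) and above them against lysate (0.28).

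Of 1527 recomputed 7 d values of 85 named genes, 1472 kept their direction and side of the threshold. Another 26 were newly called (Etv6, Fcgr3, Fli1, Bhlhe41 and Ddx58), and 5 lost their call (Spi1 and Mcm3). The other 24 changed sign, all of genes that were not called. Counts of 7 d replicates 2 and 3 differed less from each other than from those of replicates 1, 4 and 5. The chi-square per degree of freedom was 19.6 between 2 and 3 and 110 to 157 across the sets. Among replicates 1, 4 and 5 it was 23.1 to 46.7. Without 7 d replicates 2 and 3 together, Nr4a2 (adjusted p = 0.00385) was at −1.36, Maf at 0.023, Maff at −0.12 and Cd83 at −0.041. In the same setting Tlr2 was at 0.22, Axl at −0.69, Ctss at 0.068 and Tyms at −0.76. With TPM plus 1 and plus 0.1, Cd83 was at −0.060 and −0.061, Axl at −0.23 and −0.32 and Tyms at −0.044 and −0.23, and Nr4a2 at −0.21 with 0.1. Leaving out 1 library at a time gave −0.13 to 0.080 for Mef2c, −0.23 to 0.091 for Maf, −0.024 to 0.77 for Nr4a2, −0.39 to 0.027 for Tlr2, −0.13 to 0.0095 for Nrros, −0.039 to 0.45 for Bambi and −0.077 to 0.79 for Tyms. The cause of these changes was not tested. RNA depth limits genes of few counts, and peak lists of pooled libraries give no spread between replicates.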
